A study of Mus musculus with 2 samples.

Results

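Mouse chromosome 16 was described through its 348 protein-coding genes with at least 40 counted reads over both libraries, out of 667 protein-coding rows of that chromosome and 52636 gene rows in all. Of the other protein-coding rows, 207 had 0 counts in both libraries and 112 had 1 to 39. The counts came from Hepa1-6, a mouse hepatocellular carcinoma cell line labelled as C57bl/6 strain. An IRF8 line carried a lentivirus with IRF8, GFP and puromycin resistance, and a vector line carried the lentivirus with GFP and puromycin resistance alone. Both lines were infected for 24 h and selected with 2 µg/ml puromycin. With 1 library per line, p-values could not be had, and line and library cannot be told apart. The labels do not say whether a stable line is 1 clone. The chromosome was chosen by the IRF8-to-vector ratio of these same counts, and the members by their summed counts, so the differences across it are a description.

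RNA from a whole chromosome is usually compared between cell lines because the amount of transcript from many genes tends to follow the number of copies of the chromosome, while single genes can depart from it through their own regulation. Cultured tumour cells often gain or lose whole chromosomes and chromosome segments. Mouse chromosome 16 carries the counterparts of much of human chromosome 21 and is the basis of mouse models of Down syndrome. It also carries the counterparts of the human 22q11 region deleted in DiGeorge syndrome, and the cluster of interferon receptor genes. DNA was not analysed here, so gene copies and transcripts per copy cannot be told apart, nor can fewer cells with a transcript and less of it per cell.

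The members farthest from the rest of the chromosome are shown first by their promoters, with the promoter of Socs1, a feedback inhibitor of cytokine signalling, as the member whose window holds overlapping matches to an interferon-response sequence. Each window runs from 250 bases before a RefSeq gene start to 50 bases after it (RefSeq, GRCm38.p6), and capitals mark matches, on either strand, to GAAA followed by 2 bases of any kind (NN) and a second GAAA. Runx1 has 2 annotated starts here, and Atp13a4 also has 2, so a count per gene does not say which start was used.
Socs1, chr16:10785487-10785786, minus strand: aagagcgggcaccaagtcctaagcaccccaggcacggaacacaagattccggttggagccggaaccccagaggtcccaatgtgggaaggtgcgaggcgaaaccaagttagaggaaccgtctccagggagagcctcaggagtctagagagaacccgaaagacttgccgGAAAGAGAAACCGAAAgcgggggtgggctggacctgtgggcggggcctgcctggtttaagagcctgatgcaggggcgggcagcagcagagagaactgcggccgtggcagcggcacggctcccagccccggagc
Runx1 upstream start, chr16:92826025-92826324, minus strand: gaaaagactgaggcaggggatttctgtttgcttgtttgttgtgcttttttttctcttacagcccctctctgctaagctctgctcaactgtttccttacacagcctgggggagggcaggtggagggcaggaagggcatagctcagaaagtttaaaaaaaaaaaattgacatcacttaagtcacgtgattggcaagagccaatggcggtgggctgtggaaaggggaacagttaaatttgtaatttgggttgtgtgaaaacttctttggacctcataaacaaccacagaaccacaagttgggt
Runx1 downstream start, chr16:92697280-92697579, minus strand: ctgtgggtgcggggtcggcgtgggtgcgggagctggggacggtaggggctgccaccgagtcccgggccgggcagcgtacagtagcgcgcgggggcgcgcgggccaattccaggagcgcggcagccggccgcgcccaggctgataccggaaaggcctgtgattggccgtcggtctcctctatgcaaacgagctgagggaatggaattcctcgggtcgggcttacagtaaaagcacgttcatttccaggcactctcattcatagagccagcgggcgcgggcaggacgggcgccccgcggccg
Myh15, chr16:49057150-49057449, plus strand: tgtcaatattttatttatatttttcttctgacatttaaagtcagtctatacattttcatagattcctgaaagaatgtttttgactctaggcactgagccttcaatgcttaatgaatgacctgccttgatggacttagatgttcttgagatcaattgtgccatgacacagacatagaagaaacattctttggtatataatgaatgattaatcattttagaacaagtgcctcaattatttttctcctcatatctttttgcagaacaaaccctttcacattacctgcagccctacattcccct
Atp13a4 upstream start, chr16:29544815-29545114, minus strand: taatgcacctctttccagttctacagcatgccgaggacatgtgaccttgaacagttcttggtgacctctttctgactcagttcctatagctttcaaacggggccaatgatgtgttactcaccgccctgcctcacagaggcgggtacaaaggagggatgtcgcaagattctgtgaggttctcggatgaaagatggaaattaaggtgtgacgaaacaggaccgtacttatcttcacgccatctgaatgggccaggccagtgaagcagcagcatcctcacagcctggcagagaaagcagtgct

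These windows differ in base content. The downstream Runx1 window holds 35 CG dinucleotides in 300 bases and the upstream one 2, while the Myh15 window holds 0. The upstream Atp13a4 window holds 9, and the downstream one, which is not shown, holds 8. In the Socs1 window the matches GAAAGAGAAA and GAAACCGAAA overlap by their ends and lie at bases 168 to 177 and 174 to 183. Promoter windows were at hand for 288 members, 352 windows in all. The motif stood in 9 of these windows (2.56%), against 3.44% of all 32851 windows of the same length. The window sets differ in base content, with a median of 23 CG dinucleotides per member window against 7 over all windows. The full set was also not limited to genes with at least 40 counts, so the shares are not like for like. The 8 members with a match were Alg1, Socs1, Klhl22, Zdhhc8, Il1rap, 0610012G03Rik, Mylk and Tomm70a. Their log2 ratios, IRF8 line over vector line, ran from -0.87 for Il1rap to 0.32 for Socs1 with a median of -0.39, and none was past the 2-fold rule described next.

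The libraries held 20042660 counted reads for the IRF8 line and 18118017 for the vector line, and levels (CPM, counts per library size) were scaled with TMM factors of 1.04 and 0.958. A gene is called higher or lower here if the ratio of its CPM in the IRF8 line to that in the vector line was 2-fold or more in either direction and 1 lay outside the ratio's exact 95% Clopper-Pearson interval. That interval covers counting error only, and reads without molecular identifiers are not independent molecules. Irf8 itself (chromosome 8) had 1486 counts in the IRF8 line and 1010 in the vector line, a ratio of 1.22 (1.13 to 1.32), short of 2-fold. No source used here says whether transcripts of the transgene were counted at Irf8, so the ratio may not measure the overexpression and is no check of the label, which was kept. Of 9 hepatocyte and hepatoma markers, 8 were counted in both lines, and their summed level was 415 CPM in the IRF8 line and 863 CPM in the vector line. Alb, Afp, Hnf4a, Trf and Fgb were lower in the IRF8 line, with log2 ratios from -1.41 to -0.88. Apoa1 (15 counts in the IRF8 line and 3 in the vector line) and Serpina1a (6 and 1) were higher, and Apoa2 was near equal, at 0.04. Ttr, a defining hepatocyte gene, had 0 and 2 counts in these lines. The summed myeloid level was 11.9 CPM in the IRF8 line and 12.1 CPM in the vector line, of which Csf1r made up 8.89 and 9.27 CPM. That of endothelial and stellate markers was 7.13 and 7.14 CPM in these lines, and the 4 lymphoid markers had 0 counts. The near-equal endothelial and stellate sums held opposite differences. Col1a1 had 67 counts in the IRF8 line and 21 in the vector line, Vwf 23 and 50, and Cdh5 2 and 6. Pecam1 (7 and 6) and Des (50 and 41) had log2 ratios of -0.05 and 0.02.

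Chromosome 16 as a whole was lower in the IRF8 line. Its members took 355635 counts there, which was 1.77% of the library, against 384346 counts and 2.12% of the library in the vector line. The median log2 ratio of the 348 members was -0.35, a ratio of 0.785, and the middle 50% of members lay between -0.56 and -0.08. The 10419 protein-coding genes of the other 18 autosomes had a median of 0.00 and a middle range of -0.26 to 0.26, so the median difference was -0.35. Chromosome 16 had the lowest median of the 19 autosomes, followed by chromosome 15 at -0.31, chromosome 10 at -0.16 and chromosome 19 at -0.12, and chromosome 3 had the highest at 0.18. By summed counts instead of medians, chromosome 15 was lower, at -0.40 against -0.38 for chromosome 16.

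**Figure D1:**
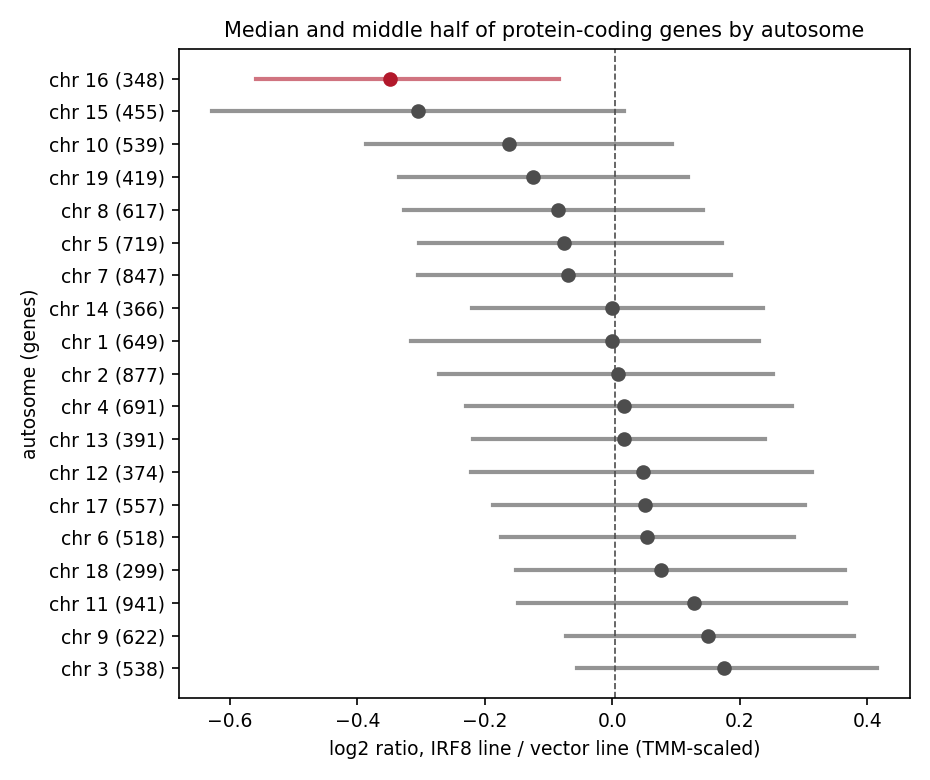
Median (point) and middle 50% (line) of the log2 ratio, IRF8 line over vector line, for protein-coding genes with at least 40 counts on each autosome, with the number of genes in brackets and the median of the other autosomes dashed. Chromosome 16 (red) has the lowest median at -0.35, and its middle 50% lies wholly below the dashed line.

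Most members shared the direction. Of the 348 members, 284 (81.6%) lay below the median of the other autosomes, where 50.0% of the other autosomes' genes lay by construction, against 73.2% on chromosome 15 and 66.4% on chromosome 10. The width of the middle 50% was 0.48 on chromosome 16, 0.65 on chromosome 15 and 0.53 over the other autosomes together, and 82.8% of members lay within 0.5 of their own median, against 75.8% of the other genes. Single autosomes had middle ranges as narrow as 0.45, on chromosome 9, and 3.45% of members lay 1 or more above their own median, against 3.21% of the other genes. These differences between chromosomes were not tested, since each rests on the same 2 libraries.

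The 6 members with the most counted reads were all lower than the other autosomes' median, with little counting error. Eif4g1, the scaffold of the translation initiation complex, had 14551 counts in the IRF8 line and 16247 in the vector line, a ratio of 0.744 (0.727 to 0.761). Rpl35a, a large-subunit ribosomal protein gene, had 8457 counts in the IRF8 line and 10839 in the vector line, a ratio of 0.648 (0.630 to 0.667), although 8.52% of its 32-base words occur at another annotated gene. Sod1, the cytosolic copper-zinc superoxide dismutase, had 8378 counts in the IRF8 line and 9765 in the vector line, a ratio of 0.712 (0.692 to 0.734). Psmd2, a regulatory subunit of the proteasome, had a ratio of 0.740 (0.717 to 0.764), with 42.1% of its words at another gene. Cct8, a subunit of the chaperonin that folds actin and tubulin, had a ratio of 0.730 (0.708 to 0.754), and Hmgn1, a nucleosome-binding protein gene, one of 0.644 (0.622 to 0.668), with 8.87% of its words at another gene. All 6 intervals lay below the members' median ratio of 0.785, and none of the 6 genes reached 2-fold. With the trend on level removed, the log2 ratio of Eif4g1 was -0.25 instead of -0.43 and that of Sod1 was -0.31 instead of -0.49. Psmd2 then had -0.26 and Cct8 -0.28. Under that setting the members' median was -0.38, so these genes lay above it, while Rpl35a (-0.45) and Hmgn1 (-0.46) stayed below.

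**Figure D2:**
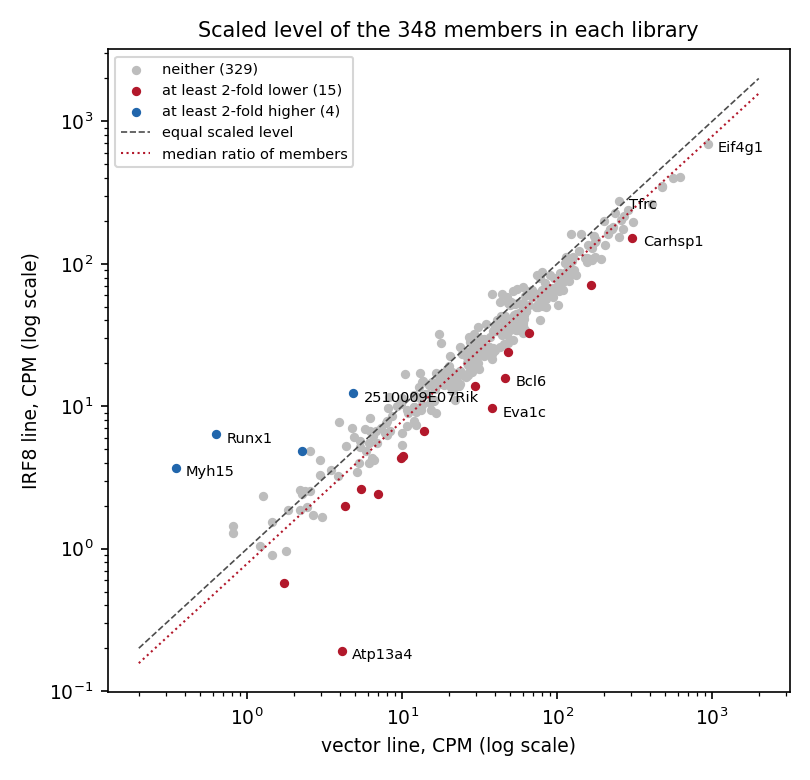
Scaled level of each of the 348 members in CPM, IRF8 line (vertical, log scale) against vector line (horizontal, log scale), coloured by the 2-fold rule. The points scatter about the dotted line at the members' median ratio of 0.785, and 283 of them (81.3%) lie below the dashed line of equal level. The rule calls 4 members higher and 15 lower.

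Lower counts were found in windows along the whole length of the chromosome. The first member was Zfp263, from base 3744093, and the last B230307C23Rik, to base 98010000 (mm10). Of the 10 Mb windows, 9 held at least 10 members, and all 9 had a median below that of the other autosomes, from -0.48 in the window from 80 to 90 Mb to -0.02 in the window from 70 to 80 Mb, which held only 10 members. Over the other autosomes, 97 of 225 such windows (43.1%) lay below that median, and 3 lay at or below -0.35, of which 2 were on chromosome 15 and 1 on chromosome 10. By chromosome, 9 of 10 windows lay below it on chromosome 15, 10 of 12 on chromosome 8, 5 of 6 on chromosome 19 and 10 of 13 on chromosome 10. The windows from 0 to 10 Mb (40 members, -0.35), 20 to 30 Mb (41 members, -0.42) and 90 Mb to the end (47 members, -0.39) were close to the median of the whole. The members below the other autosomes were 38 of 40 from 0 to 10 Mb and 11 of 11 from 80 to 90 Mb, but 48 of 65 from 30 to 40 Mb, 18 of 26 from 40 to 50 Mb and 5 of 10 from 70 to 80 Mb. Chromosome 15, the nearest in median, was less even, with windows from -0.62 to 0.02 and its lowest ones between 70 and 90 Mb.

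At a finer scale, a median over 15 consecutive members ran from -0.69 to 0.12 and lay below the other autosomes in 324 of 334 positions. It was lowest over the 15 members from Bcl6 to Ppp1r2 and highest over those from Plcxd2 to Cep97. The longest unbroken run of members below the other autosomes had 40 genes, from Naa60 to Dexi (3872375 to 10543054). The longest run in the other direction had 5 genes, Dzip3, C330027C09Rik, Myh15, Cd47 and Bbx (48924232 to 50432390).

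**Figure D3:**
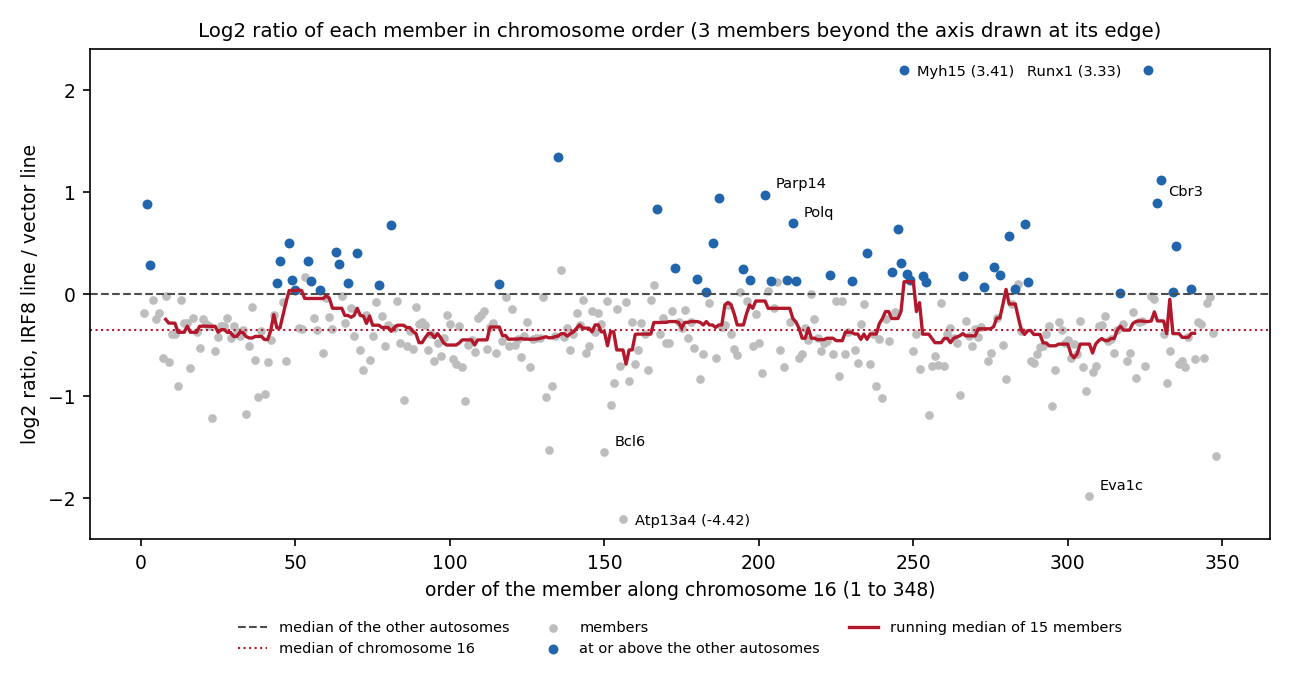
Log2 ratio, IRF8 line over vector line, of each member in its order along chromosome 16, with the running median of 15 members in red and the medians of chromosome 16 (dotted) and of the other autosomes (dashed). Blue points are the 57 members at or above the other autosomes' median with an interval above the chromosome's own median. The running median stays below the dashed line in 324 of 334 positions.

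A set of 57 members (16.4%) escaped the shift, meaning that their log2 ratio was at or above the median of the other autosomes and that their counting interval lay above the median of chromosome 16. The same rule was met by 48.4% of the other autosomes' genes. The 57 were picked by these same ratios, and whether they depart from the chromosome's own spread was not tested. Among the best counted was Tfrc, the transferrin receptor that imports iron, with 5805 counts in the IRF8 line and 4348 in the vector line, a ratio of 1.11 (1.07 to 1.15). Son, a splicing cofactor gene, had 4209 counts in the IRF8 line and 3475 in the vector line, a ratio of 1.01 (0.961 to 1.05). Zbtb20, a zinc finger repressor that represses the alpha-fetoprotein gene in liver, had 3392 counts in the IRF8 line and 2477 in the vector line, a ratio of 1.14 (1.08 to 1.20). These genes stood near the other autosomes and none reached 2-fold. Ccdc80, a secreted matrix protein gene, had 3390 counts in the IRF8 line and 2123 in the vector line, a ratio of 1.33 (1.26 to 1.40). Col8a1, a collagen chain gene, had a ratio of 1.13 (1.05 to 1.22), and Cd47, the surface protein that inhibits phagocytosis, had 1.15 (1.06 to 1.24). Zc3h7a, a zinc finger protein gene, had 1.03 (0.954 to 1.10), and Hacd2, an enzyme of very long chain fatty acid elongation, had 1.10 (1.03 to 1.19), with 10.0% of its words at another gene. Some of these no longer escaped after a trend was removed. With the trend on gene length removed, Son had a log2 ratio of -0.19, Zc3h7a of -0.05 and Zbtb20 of -0.02, and with that on GC content removed, Tfrc had -0.09 and Zc3h7a -0.05, all below the other autosomes' median.

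The escaping members had a median gene length of 6076 bases, against 4151 for the remaining 291, and a median transcript GC content of 45.8% against 48.9%, neither of which the rule used. Their median total count was 647 against 1344, and counts set the width of the interval that the rule used. Genes of the other autosomes that met the same rule differed from the rest there in the same directions, with a median length of 5006.5 bases against 3876, a GC content of 48.0% against 51.6% and a total count of 1161 against 1849. With the trend on level removed 51 members escaped (14.7%, against 48.4% of the other genes). With the trend on gene length or on GC content removed 53 did (15.2%, against 48.3% and 48.5%).

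By the 2-fold rule, 4 members (1.15%) were higher, against 3.25% of the other autosomes' genes, and 15 (4.31%) were lower, against 3.44%. Thus 21.1% of the 19 called members were higher. With scaling by total counts 8 were higher (2.30%, against 4.19%) and 8 lower (2.30%, against 2.75%), so 50.0% of the called members were higher. That scaling also moved the median of all autosomal genes to 0.12.

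The 4 higher members were Myh15, Runx1, 2510009E07Rik and Dopey2. Myh15 (ENSMUSG00000092009, 49057486 to 49199104, plus strand), a myosin heavy chain gene, had 77 counts in the IRF8 line and 6 in the vector line, a ratio of 10.7 (4.68 to 29.9). Runx1 (ENSMUSG00000022952, 92601466 to 92826149, minus strand), a transcription factor of blood cell development, had 133 counts in the IRF8 line and 11 in the vector line, a ratio of 10.0 (5.43 to 20.6). Both entered the set mainly through the IRF8 line. Their nearest members did not share the size of the difference. Rcan1, a calcineurin inhibitor gene and the nearest member on one side of Runx1, had a log2 ratio of -0.70. Setd4, the nearest on the other side, had -0.02. Between Rcan1 and Runx1 lies Clic6, below the count minimum with 23 counts in the IRF8 line and 10 in the vector line. Its log2 ratio was 0.93 (-0.19 to 2.17). Next to Myh15, C330027C09Rik had 0.31 and Cd47 0.20. The uncharacterised gene 2510009E07Rik had 257 counts in the IRF8 line and 84 in the vector line, a ratio of 2.54 (1.98 to 3.29). Dopey2 (102 counts in the IRF8 line and 39 in the vector line) had a ratio of 2.17 (1.49 to 3.23), and was not called with the trend on level removed, at 0.90 on the log2 scale. It lies beside Cbr3, a carbonyl reductase gene with 675 counts in the IRF8 line and 301 in the vector line, a ratio of 1.86 (1.62 to 2.14), while Cbr1, the other carbonyl reductase gene there, had a ratio near the other autosomes, at -0.05 on the log2 scale.

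On the lower side, Atp13a4 (29395853 to 29544864, minus strand), a P5-type transport ATPase gene, had 4 counts in the IRF8 line and 71 in the vector line, and was 21.4-fold lower (7.99 to 80.6). It entered the set through the vector line. Eva1c (90826719 to 90905109, plus strand), a membrane protein gene, had 202 counts in the IRF8 line and 662 in the vector line and was 3.95-fold lower (3.37 to 4.64). Bcl6 (23965052 to 23988852, minus strand), a transcriptional repressor of B-cell differentiation, had 332 counts in the IRF8 line and 804 in the vector line and was 2.92-fold lower (2.56 to 3.32). Beside Atp13a4, Mb21d2 and Opa1 had log2 ratios of -0.70 and -0.08. Beside Bcl6, Masp1 and Lpp had -0.29 and -0.07, and Tprg, the next member after Lpp, had -1.09. Beside Eva1c, Urb1 and 1110004E09Rik were also low, at -0.95 and -0.76. Thpo, the gene of the platelet growth factor thrombopoietin, had 51 counts in the IRF8 line and 122 in the vector line and was 2.88-fold lower (2.06 to 4.08). Ubald1 (1493 counts in the IRF8 line and 2873 in the vector line) was 2.32-fold lower (2.18 to 2.47), and Carhsp1, an RNA-binding protein gene (3182 and 5308 in these lines), was 2.01-fold lower (1.92 to 2.10). The others were Adamts1, Plcxd2, Polr2h, Arvcf, Hic2, Rpl24, Rbfox1, Tprg and B230307C23Rik, with log2 ratios from -1.01 to -1.59. Rpl24 shares 82.2%, Hic2 50.0%, Polr2h 28.8% and Carhsp1 11.3% of their words with another gene, so their values are uncertain. Several calls near 2-fold were lost under other settings. With scaling by total counts, Adamts1, Arvcf, Carhsp1, Hic2, Plcxd2 and Polr2h had log2 ratios from -0.97 to -0.88 and were among those no longer called. Carhsp1 also missed the rule with upper-quartile scaling and with the trend on level, gene length or GC content removed, with log2 ratios from -0.99 to -0.89. Polr2h missed it with upper-quartile scaling, at -0.996, and with the trend on gene length removed, at -0.908.

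Counterparts of human chromosome 21 followed the chromosome. Of 87 such genes on chromosome 16, 61 were members, with a median of -0.39. Among these 51 lay below the other autosomes, 2 were higher (Runx1 and Dopey2) and 2 lower (Eva1c and Adamts1, a secreted metalloproteinase gene). Over all members 1.15% were higher and 4.31% lower, against 3.25% and 3.44% of the other autosomes' genes. App, the amyloid precursor protein gene, had 4548 counts in the IRF8 line and 4693 in the vector line, a ratio of 0.805 (0.772 to 0.838). Dyrk1a, a kinase studied in Down syndrome, had 722 counts in the IRF8 line and 941 in the vector line, a ratio of 0.637 (0.577 to 0.703). Gabpa, an ETS-family activator of mitochondrial gene expression, had a ratio of 0.761 (0.696 to 0.832). Of the 28 members among the counterparts of the 22q11 deletion region, 27 lay below the other autosomes, the median was -0.46, 0 were higher and 1, the catenin family gene Arvcf, was lower. The exception, Hira, a histone chaperone gene with a log2 ratio of 0.10, shares 65.0% of its words with another gene.

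By function, genes of mitochondrial proteins had the lowest median, at -0.53. All 18 members of that list lay below the other autosomes and 0 passed the 2-fold rule in either direction. Cox17, with 53 counts in the IRF8 line and 44 in the vector line, lay barely below, at 0.0004 against 0.0037. The list was not compared with genes of mitochondrial proteins on other chromosomes. Fam162a, a mitochondrial protein gene near the list's median, had 1445 counts in the IRF8 line and 1752 in the vector line, a ratio of 0.685 (0.638 to 0.735), with 19.9% of its words at another gene. The ATP synthase subunit genes Atp5o and Atp5j had log2 ratios of -0.65 and -0.51, with 39.3% and 16.1% of their words at another gene, while Opa1, which fuses inner mitochondrial membranes, had -0.08. Kinases and signal transducers had a median of -0.44 (24 members, 0 higher, 0 lower). Among them Gsk3b, a kinase of the Wnt and insulin pathways, had a ratio of 0.734 (0.683 to 0.789). The list also held Tfrc, Abcc1, Ap2m1 and Snx29, genes of iron uptake, drug efflux and membrane trafficking. Their log2 ratios were 0.15, 0.10, -0.61 and 0.17. RNA processing and translation genes had a median of -0.43 (23 members, 0 higher and 2 lower, Rpl24 and Polr2h). Ubiquitin, proteasome and protein folding genes had -0.34 (28 members, 0 higher, 0 lower), with the deubiquitinase gene Usp7 at a ratio of 0.781 (0.745 to 0.818). Transcription factors and coregulators had -0.38 (24 members, 1 higher, Runx1, and 2 lower, Bcl6 and the repressor gene Hic2), with the acetyltransferase gene Crebbp at 0.765 (0.693 to 0.845). The median over all members was -0.35 and that of the other autosomes 0.00. For comparison with the called counts of each list, here and below, 1.15% of all members were higher and 4.31% lower. Of the other autosomes' genes, 3.25% were higher and 3.44% lower.

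Adhesion and tight junction genes had 9 members of 25 genes on the chromosome, a median of -0.34 and 0 genes called. Liver-secreted proteins had only 4 members of 12 (median -0.40, 0 higher, 1 lower, Thpo). Fetub, a plasma protease inhibitor gene, had 196 counts in the IRF8 line and 231 in the vector line. The fetuin A gene Ahsg fell short of 40 counts, with 6 in the IRF8 line and 8 in the vector line, as did the kininogen gene Kng1 with 3 and 16 in these lines.

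DNA replication, repair and chromosome assembly genes had a median of -0.15. That list also held the centrosome and spindle genes Cep19, Cep97, Spice1 and Nde1, with log2 ratios of 0.26, 0.12, -0.55 and -0.02. Of 20 members, 14 lay below the other autosomes, 6 escaped, and 0 passed the 2-fold rule. Over all members 81.6% lay below and 16.4% escaped, and 48.4% of the other autosomes' genes met the escape rule. Among the 6 were Cep19, Cep97 and also Hira, with the shared sequence given above. Polq, a DNA polymerase of end joining, had 351 counts in the IRF8 line and 180 in the vector line, a ratio of 1.62 (1.35 to 1.95), and Prkdc, the catalytic subunit of the DNA-dependent protein kinase, had a ratio of 1.32 (1.11 to 1.57). In the same list Chaf1b, a subunit of chromatin assembly factor 1, had 683 counts in the IRF8 line and 1040 in the vector line, a log2 ratio of -0.87.

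Of 10 members among interferon receptors and interferon-inducible genes, 5 lay below the other autosomes and 4 escaped (Parp14, Parp9, Socs1 and Cd47), the median was -0.09, and 0 passed the 2-fold rule. Over all members 81.6% lay below and 16.4% escaped, and 48.4% of the other autosomes' genes met the escape rule. None of the 4 receptor genes was called: Ifnar1 had a ratio of 0.730 (0.678 to 0.786), Ifngr2 one of 0.740 (0.670 to 0.816), Ifnar2 one of 0.809 (0.716 to 0.914) and Il10rb one of 0.864 (0.722 to 1.03). Ifnar2 and Il10rb share 9.42% and 20.7% of their words with another gene. Ifnar1 and Ifnar2 encode the receptor of type I interferon, Ifngr2 a chain of the interferon-gamma receptor and Il10rb a chain shared by interleukin-10 family receptors. Parp14, an interferon-inducible ADP-ribosyltransferase gene, had 161 counts in the IRF8 line and 68 in the vector line, a ratio of 1.97 (1.47 to 2.65). Its neighbours Dtx3l and Parp9, which encode partner proteins and overlap each other, had ratios of 1.02 (0.719 to 1.46) and 1.09 (0.845 to 1.42). Socs1 had 128 counts in the IRF8 line and 85 in the vector line, a ratio of 1.25 (0.943 to 1.67), and Nfkbiz, an inducible IkB family gene, had a log2 ratio of -0.73. Below the count minimum, Mx1, an antiviral GTPase gene, had 2 counts in the IRF8 line and 31 in the vector line, and Ciita, the class II transactivator, had 0 and 7 in these lines. Mx2 is listed as a polymorphic pseudogene and is no member.

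**Figure D4:**
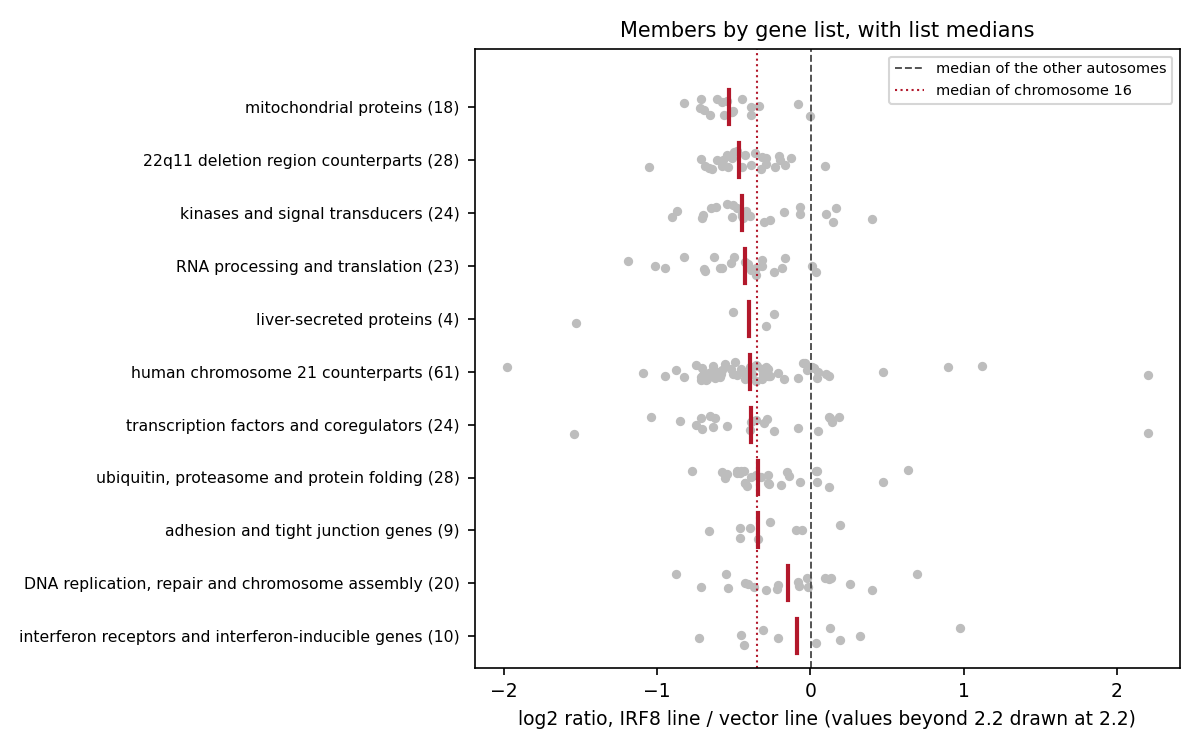
Log2 ratio, IRF8 line over vector line, of the members in each of 11 gene lists (grey points, number in brackets), with the list median as a red bar and the medians of chromosome 16 (dotted) and of the other autosomes (dashed). List medians run from -0.53 for mitochondrial proteins to -0.09 for interferon receptors and interferon-inducible genes, and all lie left of the dashed line.

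The median difference varied with the level and the kind of gene. Among members with 40 to under 200 counts it was -0.20 (33 members), with a median of 0.00 against 0.20 on the other autosomes. It was -0.39 for the 118 members with 200 to under 1000 counts, -0.38 for the 150 with 1000 to under 4000 and -0.27 for the 47 with more. Log2 ratios of the other autosomes declined with level, and the members' median was below theirs in each of these strata. By GC content the difference ran from -0.46 in the lowest quartile of the other autosomes' genes to -0.24 in the highest, and by gene length from -0.25 for the shortest quartile to -0.41 for the third. For the 253 members with at most 5% of their words at another gene it was -0.37, and for the 95 with more it was -0.31. With the trend on level removed the difference over all members was -0.38, with that on gene length removed it was -0.35, and with that on GC content removed it was -0.37.

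**Figure D5:**
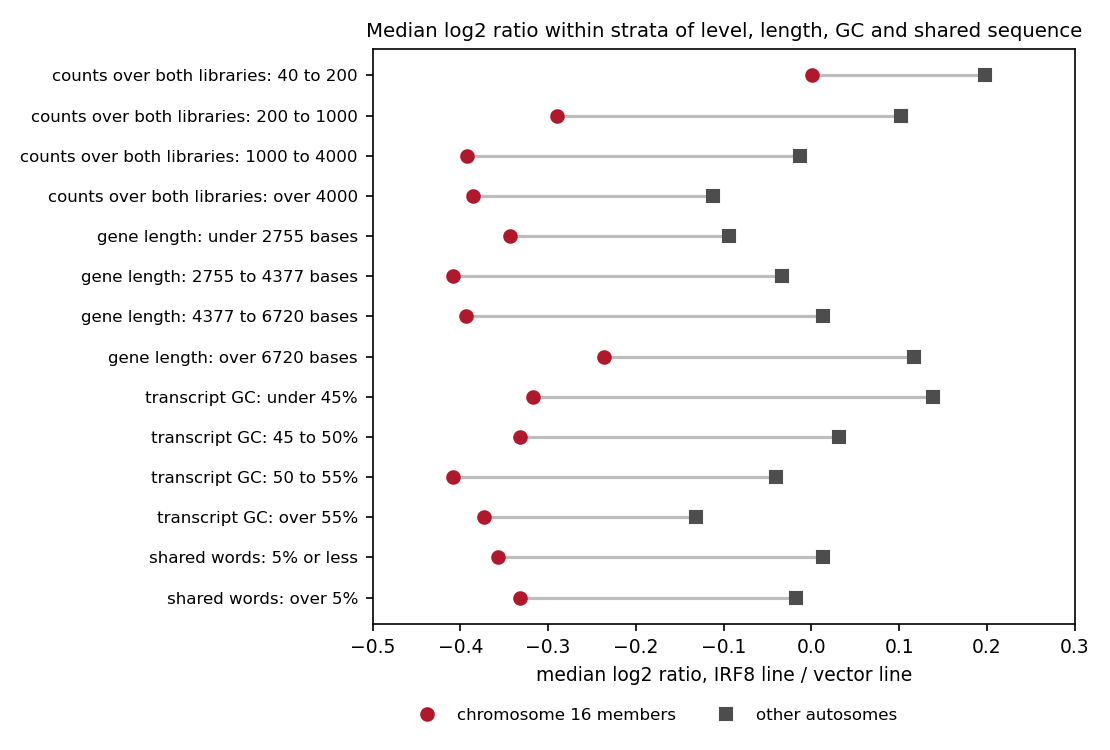
Median log2 ratio, IRF8 line over vector line, of chromosome 16 members (red circles) and other autosomal genes (grey squares) within strata of counted reads, gene length, transcript GC content and share of words found at another gene. The red circle lies left of the square in each stratum, with differences from -0.46 to -0.20.

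Genes that the rule left out gave few values. Of long noncoding RNA genes with at least 40 counts, 11 lay on chromosome 16, with 463 counts in the IRF8 line and 467 in the vector line. Their median log2 ratio was -0.60, the lowest of the 19 autosomes, against 0.04 for 455 such genes on the other autosomes, but the middle 50% ran from -0.89 to 0.37 and only 6 of 11 lay below the coding median. Of pseudogenes 9 lay on chromosome 16, with a median of 0.05 against 0.33 for 611 on the other autosomes, also the lowest, and reads of pseudogenes can belong to their parent genes.

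Near the count minimum the values carried wide intervals. The members just inside it were Dnase1 (19 counts in the IRF8 line and 25 in the vector line), Ypel1 (27 and 14), Gp1bb (22 and 21), Pigz (30 and 14) and B230307C23Rik (12 and 30). Just outside it were Mx1, Clic6 (23 and 10), Tmem191c (11 and 17), Rtp4 (13 and 18) and Rtn4r (20 and 14). Of all members, 7 had under 20 counts in one of the lines, and Runx1, Myh15, Atp13a4 and B230307C23Rik were the called ones among them.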

How the data were processed

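The deposited table holds whole-number read counts per gene, with no normalization, 1 column per library. Per the submitters' processing notes, the authors used HISAT2 2.0.5, featureCounts 1.5.0-p3 and mm10. The labels name a NEBNext Ultra RNA kit. No source used here gives the strand setting, the handling of multi-mapped reads or the annotation release, so reads of overlapping genes (102 members overlap another coding gene) and of near-identical copies are uncertain. Coordinates are the table's own, and 230 of 348 members have the same ones in GENCODE M21.

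Counts were scaled with TMM (edgeR 4.0.16, R 4.3.3). Ratios and intervals were computed with scipy 1.17.1 and pandas 2.3.3 under Python 3.11.15, and figures drawn with matplotlib 3.10.9. A count of 0 was set to 3 counts in log2 ratios. With 1 library per group edgeR's test was not run. The functions were tested on simulated data. Shared words are 32-base words of each gene's longest GENCODE M21 transcript found in that of another gene.

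The members and the 11 gene lists were chosen with earlier results of these data known. Named genes were the 8 highest and 8 lowest members by interval bound, the 6 with the most counts, list members past the rule or nearest to a list's median, the 8 best counted that escaped, 14 landmark genes (1 not reported here), Irf8 and 5 on each side of the count minimum. Neighbours, further list members and the remaining called genes were named after their values were seen. Alternatives were 3 other scalings, TMM without chromosome 16, other count minimums, folds and intervals, trend removal, a pseudocount and leaving out overlapping genes or windows.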

Additional observations from a re-analysis of the deposited data

How the results depend on the processing

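Between chromosome 16 and the other autosomes, the median difference of -0.35 does not depend on the scaling by construction, ran from -0.38 to -0.34 with each 10 Mb window left out, and was -0.29 with no count minimum. It was -0.38 with the expression trend removed, and -0.37 both with the GC trend removed and with genes of shared sequence left out, which were alternatives chosen after seeing the data. All 11 list medians and all 9 windows stayed below the other autosomes after removal of the expression trend and also when scaled by total counts. The 4 higher members became 8 with scaling by total counts (2.30%, against 4.19% of the other autosomes' genes) and 8 with no count minimum (1.74% against 3.28%). They became 1 at 200 counts or more (0.317% against 1.61%), 11 at 1.5-fold (3.16% against 8.98%) and 2 at 4-fold (0.575% against 0.451%). The 15 lower members became 8 with scaling by total counts (2.30% against 2.75%), 76 at 1.5-fold (21.8% against 9.02%) and 1 at 4-fold (0.287% against 0.710%). The 57 escaping members numbered 42 (overlapping genes left out, 17.1% against 48.5%) to 63 (no count minimum, 13.7% against 37.3%) over the alternatives. Of 812 values of named members under the alternatives, 31 lost and 10 gained a call by the fold rule, and 0 of the called ones changed sign. Of the best counted escaping members, Son, Zbtb20, Zc3h7a and Tfrc changed sign with the trend on gene length or GC content removed. No paired analysis was possible because each group had 1 library, and none could be left out. Depth limits single genes: at the count minimum an interval spans a ratio of 0.456 to 1.66 (Gp1bb, which shares 92.8% of its words with another gene).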
